A study of Drosophila simulans x Drosophila sechellia and Drosophila simulans x Drosophila mauritiana and Drosophila mauritiana x Drosophila simulans with 63 samples.

Results

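The centrosome genes cnn, asl, Sas-4, Sas-6, ana2, SAK, polo, aur and spd-2 were followed in single embryos of Drosophila simulans, D. sechellia and D. mauritiana and of their hybrids. The members were taken by gene symbol, other spellings included, a rule that uses no measured value. Of the 9 genes, 6 had a row in all 3 tables, in which aur is listed as aurA. The tables held 10955 genes for the pair sim/mau, 10733 for sim/sec and 10555 for sec/mau, where sim, sec and mau stand for the species. The other members, ana2, SAK and spd-2, were not analysed here. All 6 genes are autosomal. Each row lists 1 exon, which on the D. simulans r2.02 assembly runs on 3L from 19784244 to 19784887 for polo (FBgn0186544) and on 2R from 10000616 to 10000897 for cnn (FBgn0197042). On 3R it runs from 13318578 to 13318820 for aurA (FBgn0190309), from 1327388 to 1327597 for asl (FBgn0269748), from 2900086 to 2902001 for Sas-4 (FBgn0191400) and from 25167188 to 25167449 for Sas-6 (FBgn0185752).

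The study compared expression regulation between maternally supplied and zygotic transcripts in 63 embryos, 45 hybrid and 18 parental. Late stage 5 embryos, collected at the end of the blastoderm after the zygotic genome is switched on, were F1 hybrids of 5 crosses written mother first: sim x mau, mau x sim, sim x sec, sec x mau and mau x sec. There were 6 such embryos per cross, of XX or XY genotype. Stage 2 embryos hold maternal transcripts only, so the hybrid genome there is that of the mother: F1 females were crossed back to males of their own mother's species, giving (sim x mau) x sim, (mau x sim) x mau, (sim x sec) x sim, (sec x mau) x sec and (mau x sec) x mau, with 3 embryos each. Parental embryos came from a white-eyed (w) line of D. simulans, a wild-type line of D. sechellia and a w line of D. mauritiana, with 3 embryos per species and stage. Each species was thus 1 laboratory line. The parental embryos were taken from an earlier study, so hybrid origin and study cannot be told apart where hybrid levels are set against parental levels.

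The centrosome organises the microtubules of the mitotic spindle. It consists of a pair of centrioles within pericentriolar material, and it duplicates once in every division cycle. In Drosophila the syncytial nuclear divisions of the early embryo run on maternal products, and centrosomes drive the spindles and the spacing of nuclei below the cell surface. SAK (Plk4) kinase, ana2 and Sas-6 start a new centriole, Sas-4 and asl link it to the pericentriolar material, and spd-2 and cnn build that material under the control of polo and aurora A kinases.

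Values were allele-specific: reads at variant sites between the 2 species of a pair, summed per gene, allele and embryo, and scaled to the upper quantile. Depth was 2146524 to 7044646 allele-assigned reads per embryo and pair. Because a gene's value grows with its number of variant sites, values were compared between stages, species and alleles of 1 gene within a pair. They were never compared between genes. In parental embryos the allele of the other species received at most 0.904% of a member's reads under the main mapping. The study called its variant sites from parental reads of the earlier study, so a low value was built in. It does not measure mapping bias in hybrids. Of the genes chosen as checks, all 10 maternal transcripts known to be cleared were lower at stage 5 and all 13 zygotic blastoderm genes were higher. Of 9 follicle-cell and eggshell genes, 7 were measured and were at 0 at both stages, and 4 of 5 measured pole-cell genes were lower at stage 5. These 4, nos, pgc, gcl and osk, are also among the 10 maternal transcripts, so they are no separate check. The remaining pole-cell gene, aub, had a higher median at stage 5 (251 against 199). Of 4 yolk and fat body genes, 1, sisA, was higher at stage 5, Yp1 and Yp2 were at 0 in every embryo, and Yp3 reached at most 8.35 at stage 5 and 1.53 at stage 2. Each sample was a separate embryo, and whether embryos shared a mother was not stated, so p-values measure the spread between these embryos. RNA was selected for poly(A), so the values are of polyadenylated transcripts. Replicates were distinct libraries, with a chi-square per degree of freedom of 2.29 to 44.7 between embryos of 1 group.

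The first comparison asked how the centrosome genes changed between stage 5 and stage 2 in the parental species. The kinase genes moved in opposite directions. polo was higher at stage 5 in all 3 species and aurA was lower in all 3. The scaffold genes cnn and asl were higher at stage 5 as deposited. However, asl was lower once values were divided by the total of the embryo, and edgeR on recovered reads called it higher in no species. Sas-4 was lower, and Sas-6 was lower in D. simulans and D. mauritiana. In total 3 members were called higher and 3 lower in D. simulans, 3 higher and 2 lower in D. sechellia, and 3 higher and 3 lower in D. mauritiana. Over all genes tested, 48.3% were called higher and 32.4% lower in D. simulans, 49.4% and 31.7% in D. sechellia, and 51.5% and 33.5% in D. mauritiana, so a call by itself was common. Each test used limma on log2(value + 1) and was two-sided. Its p-values were adjusted over all genes by the Benjamini-Hochberg method, with a threshold of 0.05. Fold changes are on that scale. For stage changes, D. simulans and D. mauritiana values are from the pair sim/mau, and D. sechellia values are from sim/sec. The pairs use different variant sites, so these D. sechellia levels compare between stages and not with the levels of the other species.

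polo encodes the mitotic kinase that phosphorylates cnn and activates the growth of the pericentriolar material. In D. simulans its scaled value was 4042, 3864 and 3836 at stage 5, against 1595, 1560 and 1483 at stage 2. In D. sechellia it was 7566, 7339 and 7917 at stage 5, against 2266, 2505 and 2835 at stage 2. In D. mauritiana it was 5055, 4888 and 5198 at stage 5, against 2077, 2867 and 2493 at stage 2. Every stage 5 embryo lay above every stage 2 embryo of its species. The log2 change was 1.34 ± 0.07 (SE; limma adjusted p = 1.06e-05) in D. simulans, 1.59 ± 0.14 (4.83e-06) in D. sechellia and 1.04 ± 0.13 (5.69e-05) in D. mauritiana.

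aurA, the Aurora A kinase that drives centrosome maturation and spindle assembly, showed the reverse. In D. simulans the embryos had 287, 282 and 242 at stage 5, against 1246, 1072 and 1148 at stage 2. In D. sechellia they had 359, 377 and 404 at stage 5, against 939, 1021 and 1131 at stage 2. The D. mauritiana embryos had 283, 240.4 and 241 at stage 5, against 1132, 1025 and 1087 at stage 2. The stages did not overlap in any species. The log2 change was -2.09 ± 0.10 (limma adjusted p = 8.12e-06), -1.43 ± 0.14 (1.06e-05) and -2.09 ± 0.11 (2.27e-07) in D. simulans, D. sechellia and D. mauritiana, the strongest fall among the members in D. simulans and D. mauritiana.

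cnn encodes centrosomin, the scaffold of the pericentriolar material. Its values were 5529, 4264 and 5103 at stage 5 in D. simulans, against 2363, 2394 and 1809 at stage 2. In D. sechellia they were 3862, 3229.8 and 2755 at stage 5, against 1511, 1941 and 1825 at stage 2, and in D. mauritiana 4598, 3647 and 4542 at stage 5, against 2239.9, 2552 and 2382 at stage 2. The stages were again separate, with a log2 change of 1.18 ± 0.16 (limma adjusted p = 0.000585), 0.89 ± 0.17 (0.00079) and 0.83 ± 0.12 (0.00017). asl encodes Asterless, which recruits SAK to the centriole. It moved less than polo and cnn: 1057, 1051 and 1118 at stage 5 in D. simulans, against 771, 702 and 663 at stage 2, a log2 change of 0.60 ± 0.08 (limma adjusted p = 0.000633). In D. sechellia asl changed by 0.35 ± 0.12 (adjusted p = 0.0287) and in D. mauritiana by 0.37 ± 0.10 (0.00503).

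Sas-4 tethers pericentriolar material to the centriole. In D. sechellia its values were 192, 189.7 and 220.0 at stage 5, against 950.3, 762 and 945 at stage 2. In D. simulans they were 376, 318 and 338 at stage 5, against 501.3, 779 and 624 at stage 2, and in D. mauritiana 218, 198 and 148 at stage 5, against 575, 562 and 478 at stage 2. Sas-4 fell in all 3 species, by a log2 change of -2.13 ± 0.16 (limma adjusted p = 2.01e-06) in D. sechellia, -0.86 ± 0.17 (0.00402) in D. simulans and -1.53 ± 0.17 (2.08e-05) in D. mauritiana. Sas-6 forms the spokes of the centriolar cartwheel. It had 221, 259.8 and 280.0 at stage 5 in D. simulans, against 459, 408 and 453 at stage 2, a log2 change of -0.80 ± 0.12 (limma adjusted p = 0.000943). In D. sechellia it had 462 to 669 at stage 5, against 388 to 468 at stage 2, where the stages overlapped and the change of 0.31 ± 0.18 was not called (adjusted p = 0.15). In D. mauritiana the values were 459, 349 and 360.0 at stage 5, against 484, 587 and 526.1 at stage 2, with a change of -0.46 ± 0.14 (adjusted p = 0.0131).

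**Figure D1:**
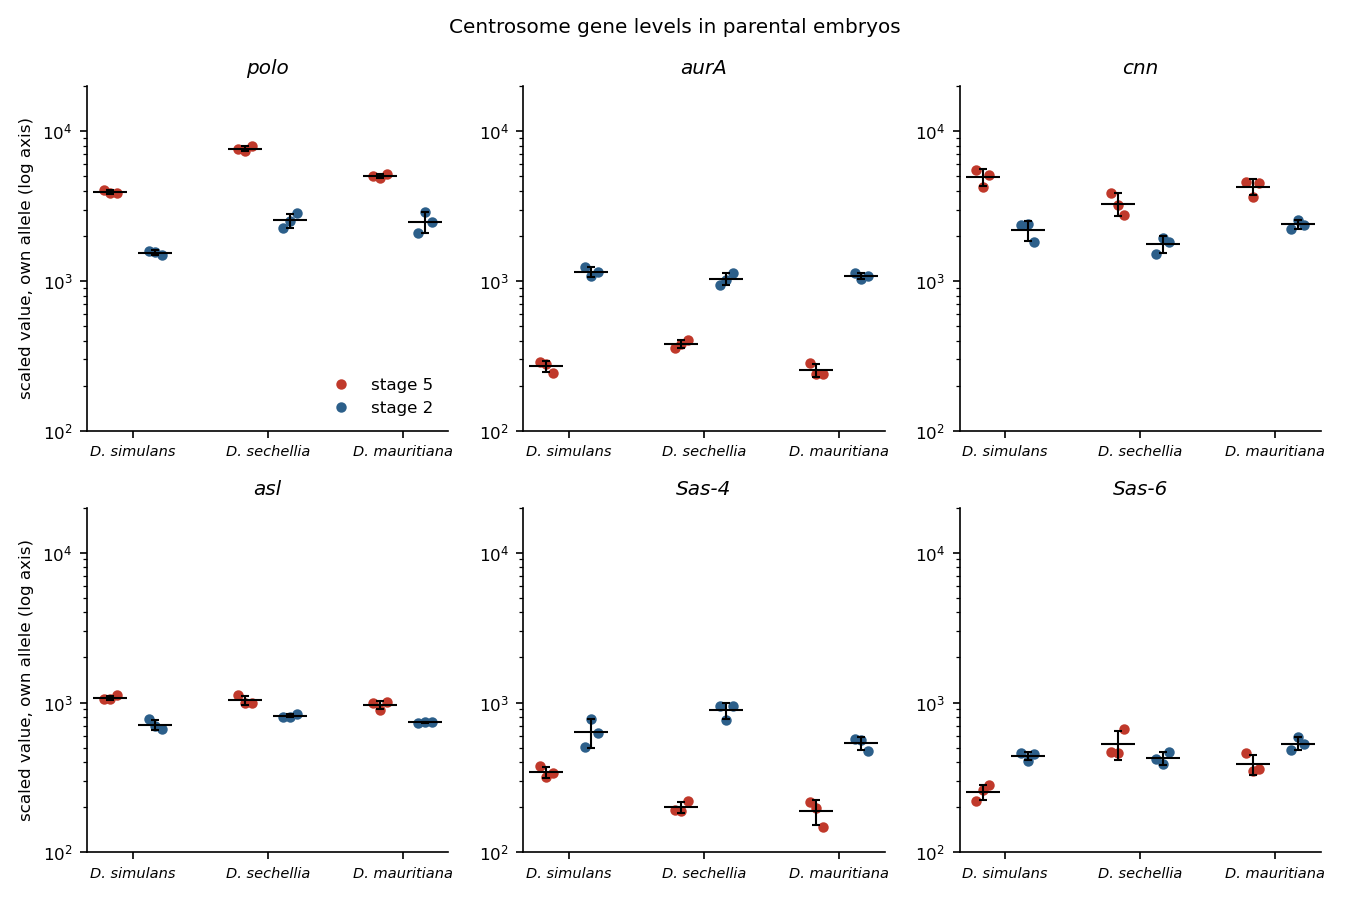
Scaled value of each centrosome gene's own-species allele on a log axis, by species, with stage 5 left of stage 2; points are embryos, the bar is the mean and the whisker the SD (n = 3). polo and cnn lie higher at stage 5 in all 3 species, and aurA and Sas-4 lie lower. D. sechellia values are from the sim/sec pair and the others from sim/mau, so D. sechellia levels do not compare with the others.

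The scaling bears on these directions. The median of all genes itself moved by 0.46, 0.49 and 0.50 on the log2 scale in D. simulans, D. sechellia and D. mauritiana. Relative to that median, polo stood at 0.88, 1.10 and 0.53, cnn at 0.72, 0.40 and 0.32, and asl at 0.14, -0.15 and -0.13. With values divided by each embryo's total, an alternative chosen after seeing the data, the asl change turned to -0.22, -0.36 and -0.37, and cnn was no longer called in D. sechellia (0.19) or D. mauritiana (0.08). Under that scaling polo kept its call at 0.53, 0.88 and 0.29. The share of calls that were higher at stage 5 was 59.9%, 61.0% and 60.6% as deposited, and 42.0%, 45.5% and 44.7% when divided by the total. Leaving out 1 embryo at a time lost the asl call in D. sechellia 4 times (any stage 2 embryo or stage 5 replicate 1, 0.29 to 0.37) and the Sas-6 call in D. mauritiana 2 times (stage 5 replicate 2 or 3, -0.38 and -0.41). The other genome also lost that Sas-6 call, at -0.39 (adjusted p = 0.0705). The lower Sas-4 and aurA values at stage 5 kept their direction and call as deposited, with TMM, divided by the total and with edgeR.

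Whether the stage change differed between species was tested by the difference of the 2 changes. Sas-4 fell less in D. simulans than in D. sechellia, by 1.18 ± 0.23 on the log2 scale (limma adjusted p = 0.0019). Sas-6 and aurA differed the other way, by -0.74 ± 0.26 (adjusted p = 0.0473) and -0.53 ± 0.17 (0.0368). polo changed more in D. sechellia than in D. mauritiana, by 0.64 ± 0.22 (adjusted p = 0.0499). Thus 3 of 6 members were called between D. simulans and D. sechellia, where 28.5% of all genes were, and 1 of 5 between D. sechellia and D. mauritiana, where 21.2% were. Between D. simulans and D. mauritiana no member was called by limma (26.8% of all genes), with 1 at an unadjusted p under 0.05 and 0 called by edgeR on recovered reads. The 4 calls were fragile apart from Sas-4. They dropped to 2 without D. simulans stage 2 replicate 1 or 3, and to 1 without D. sechellia stage 2 replicate 1 or 2 or stage 5 replicate 3. Under the other genome aurA, at -0.56 (adjusted p = 0.0702), and polo, at 0.62 (0.0522), were not called.

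Species were then compared at each stage, D. simulans over D. mauritiana, D. simulans over D. sechellia and D. sechellia over D. mauritiana. At stage 2, 1 of 6 members was called for D. simulans over D. mauritiana (39.3% of all genes), 0 of 6 in sim over sec (28.1%) and 2 of 5 in sec over mau (28.4%). For the count of 0, no member had an unadjusted p under 0.05, and edgeR on recovered reads called 0. polo had a lower stage 2 value in D. simulans than in D. mauritiana, by -0.67 ± 0.14 (limma adjusted p = 0.00536), and by -0.43 under the other genome (0.0484). In the table of D. sechellia and D. mauritiana, polo had 2583, 2972 and 3433 in D. sechellia, against 4078, 5768 and 4873 in D. mauritiana, a log2 difference of -0.71 ± 0.19 (adjusted p = 0.0201). Sas-4 was higher in D. sechellia than in D. mauritiana, by 0.58 ± 0.16 (adjusted p = 0.0237). Both calls between D. sechellia and D. mauritiana were lost under the other genome, at -0.46 for polo and 0.37 for Sas-4 (adjusted p = 0.0905 and 0.0969). That genome gained the calls of cnn for D. sechellia over D. mauritiana, at -0.59 (adjusted p = 0.0193), and of Sas-6 for D. simulans over D. mauritiana, at -0.53 (0.0154), so the members called at stage 2 depended on the mapping. The polo call was also lost without D. sechellia replicate 1 or 2 or D. mauritiana replicate 2 or 3 (-0.71 to -0.58), and the Sas-4 call without D. sechellia replicate 1 or 3 or D. mauritiana replicate 3 (0.47 to 0.54).

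At stage 5 the members split. For D. simulans over D. mauritiana, 3 of 6 members were called (54.3% of all genes): Sas-4 was higher, by 0.88 ± 0.17 (limma adjusted p = 0.00168), and Sas-6 and polo were lower, by -0.61 ± 0.16 (0.00766) and -0.37 ± 0.08 (0.0037). Between D. simulans and D. sechellia, 5 of 6 were called (47.1%). Sas-4 was higher in D. simulans, by 0.99 ± 0.16 (adjusted p = 0.00132). In the values of the sim/sec pair, D. simulans embryos had 453, 377 and 372 and D. sechellia embryos 192, 189.7 and 220.0. cnn and asl were also higher in D. simulans, by 0.47 ± 0.15 (0.0343) and 0.46 ± 0.11 (0.00998), and Sas-6 and polo were lower, by -0.64 ± 0.21 (0.0338) and -0.26 ± 0.09 (0.047). For D. sechellia over D. mauritiana, limma called 0 of 5 members (38% of all genes), with polo at -0.07 and a 95% interval of -0.30 to 0.17, and aurA at 0.45 with an interval of 0.09 to 0.81 before adjustment, the 1 member with an unadjusted p under 0.05. edgeR called 0, but the other genome called cnn, lower in D. sechellia by -0.50 (adjusted p = 0.0179). Reads mapped to the other genome of the pair gave smaller stage 5 differences between D. simulans and D. mauritiana for polo, -0.05 (adjusted p = 0.607), and for Sas-4, 0.57 (0.00815). The polo values of that pair rest on 8 variant sites. Between D. simulans and D. sechellia, leaving out 1 embryo at a time lost the Sas-6 call for every embryo but D. simulans replicate 3 (-0.73 to -0.46), the polo call for every embryo but D. sechellia replicate 3 (-0.29 to -0.26), and the cnn call for D. simulans replicate 1 or 3 and D. sechellia replicate 2 or 3 (0.35 to 0.46). Under the other genome cnn was at 0.34 (adjusted p = 0.0956) and polo at -0.22 (0.163), Sas-4 kept its call at a smaller 0.65 (0.0231), Sas-6 was at -0.89 (0.0189) and aurA gained a call at -0.61 (0.0251).

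In hybrids both alleles were read within the same embryo. In eggs of hybrid mothers the alleles of the centrosome genes were close to even. The share of the first-named allele in (sim x mau) x sim was 48.7%, 48.7% and 48.2% for polo, 48.7%, 50.6% and 51.7% for cnn, and 48.7%, 53.4% and 48.7% for asl. For aurA it was 55.0%, 54.5% and 55.8%, with every embryo on the D. simulans side. The departure furthest from even was Sas-4 in the D. sechellia and D. mauritiana crosses, with a D. sechellia share of 60.8%, 59.4% and 61.2% in (sec x mau) x sec and 58.0%, 58.9% and 63.3% in (mau x sec) x mau. The median gene had 51.4% to 51.6% of the allele of the pair's first-named species over the 5 crosses. That species is in every pair also the one whose genome served as the main mapping.

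By limma on the log2 allele ratio, 2 of 6 members were called in (sim x mau) x sim (41.9% of all genes), 1 of 6 in (mau x sim) x mau (34.8%), 4 of 6 in (sim x sec) x sim (50%), 2 of 5 in (sec x mau) x sec (49.3%) and 2 of 5 in (mau x sec) x mau (52.3%). The share of members called was above the genome-wide one in (sim x sec) x sim and below it in the other crosses. Sas-4 had a log2 ratio of 0.61 ± 0.04 (limma adjusted p = 9.72e-05) and 0.59 ± 0.07 (0.00089) in the D. sechellia and D. mauritiana crosses. After mapping to the D. mauritiana genome these ratios were 0.10 (adjusted p = 0.126) and 0.06 (0.553), so both calls were lost. In (sim x sec) x sim the ratios of cnn, polo and aurA were 0.19, 0.10 and 0.32 in reads mapped to the D. simulans genome and -0.14, -0.10 and -0.10 in reads mapped to the D. sechellia genome. No stage 2 imbalance of a centrosome gene towards 1 allele was called in the same direction under both mappings, apart from polo in (sim x mau) x sim, at -0.08 (limma adjusted p = 0.0448) and -0.13 (0.0232), a small lean to the D. mauritiana allele. That polo call was lost when any 1 of the 3 embryos was left out (-0.09 to -0.08). asl in (sim x sec) x sim, at 0.22 ± 0.04 (adjusted p = 0.00466), could be read under 1 mapping only.

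At stage 5 the alleles of polo and asl in F1 hybrids parted according to the mother in every cross. For the other members this varied with the gene and the cross. The allele that came from the mother includes transcripts laid down in the egg as well as those made from the maternal chromosome, which cannot be told apart by sequence. polo was the extreme among the members. In sim x mau the maternal share of polo was 85.8%, 89.1% and 91.0% (lowest, median and highest of 6 embryos), and in mau x sim it was 86.8%, 89.5% and 91.7%. In sim x sec it was 88.0%, 88.9% and 90.5%, in sec x mau 92.7%, 94.2% and 95.2%, and in mau x sec 90.4%, 91.1% and 91.8%. Every one of the hybrid embryos of every cross thus carried at least 85.8% maternal polo reads, whichever species was the mother. In scaled values the maternal allele averaged 3846 ± 243 and the paternal allele 482 ± 86.2 in sim x mau (SD, n = 6). In sec x mau these were 8407 ± 595 and 529 ± 80.9.

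asl followed, with a mean maternal share of 69.0% ± 2.19 in sim x mau, 70.1% ± 3.22 in mau x sim and 66.1% ± 3.19 in sim x sec (SD, n = 6). asl had no variant sites in reads mapped to the D. sechellia genome, so for the D. sechellia and D. mauritiana pair only the mapping to D. mauritiana gave values: 74.9% ± 4.56 in sec x mau and 71.2% ± 1.61 in mau x sec. No embryo of any cross had an asl maternal share below 60.6%. The cnn and aurA shares under the main mapping were lower with a D. mauritiana mother. For cnn the maternal share was 66.1% ± 2.17 in sim x mau but 48.8% ± 1.92 in mau x sim, and 67.6% ± 2.20 in sec x mau but 52.6% ± 0.99 in mau x sec. For aurA it was 66.2% ± 3.97 in sim x mau, 51.6% ± 4.63 in mau x sim, 68.4% ± 2.49 in sec x mau and 60.8% ± 4.95 in mau x sec. For cnn this gap rested on the mapping in the sec/mau pair, where the other genome gave 59.6% in sec x mau and 61.1% in mau x sec.

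For Sas-4 the majority allele did not change with the mother in the sim/mau pair. Its maternal share was 59.2% ± 3.85 in sim x mau and 40.2% ± 4.69 in mau x sim, so that the D. simulans allele was in the majority in both. The other genome gave 54.7% and 45.0%, the same side. In sim x sec it was 58.6% ± 4.23, again with the D. simulans allele ahead, and 50.3% under the other genome. In sec x mau and mau x sec it was 55.2% ± 4.00 and 46.3% ± 6.82. Sas-6 had 58.4% ± 3.71 in sim x mau and 46.6% ± 6.53 in mau x sim, and 74.9% ± 5.40 in sec x mau and 44.9% ± 3.66 in mau x sec. The Sas-6 values of the sec/mau pair rest here on 4 variant sites and 424 and 414 reads over the 6 embryos of each cross. The other genome gave Sas-6 52.2% in sim x mau and 53.3% in mau x sim, with the mother's allele ahead in both. It gave 67.6% in sec x mau and 50.1% in mau x sec.

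**Figure D2:**
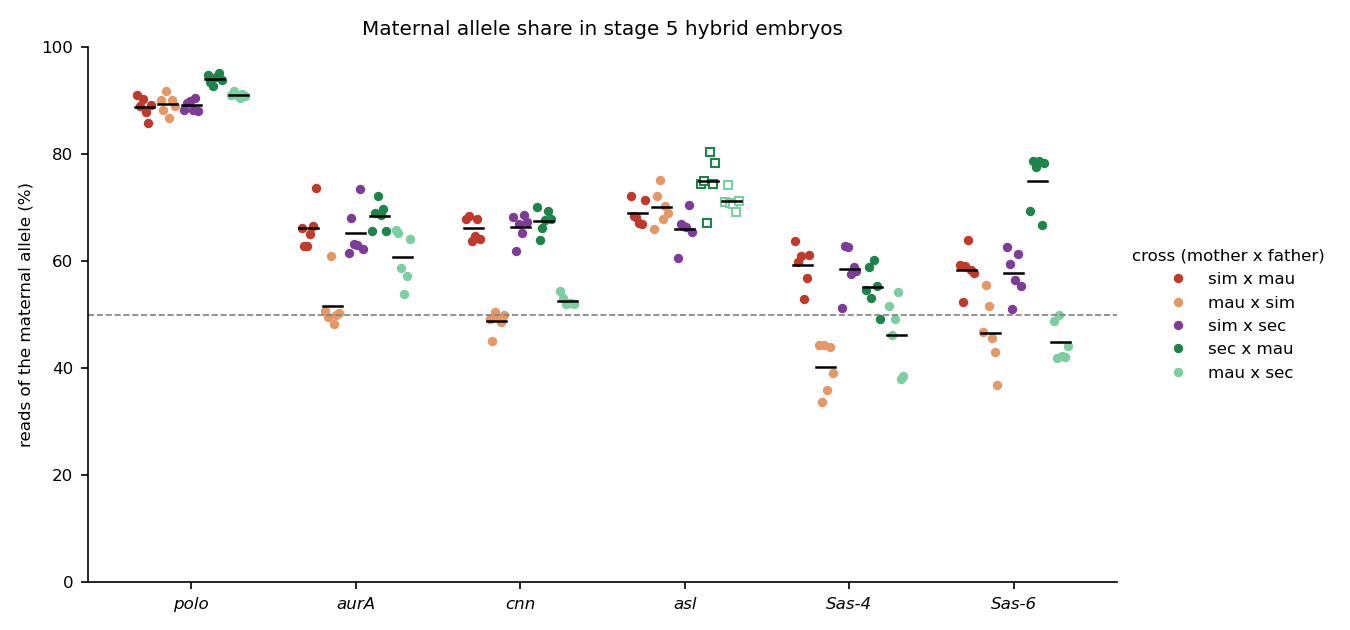
Share of reads carrying the maternal allele, in percent, for each centrosome gene in stage 5 hybrids; points are embryos, the bar is the mean of 6, colours are crosses, and the dashed line is an even share. Open squares for asl are reads mapped to the D. mauritiana genome. polo lies between 85.8% and 95.2% in every cross, whereas Sas-4 lies on both sides of the even line.

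For all genes the median maternal share was 69.7% in sim x mau, 68.8% in mau x sim, 72.2% in sim x sec, 74.5% in sec x mau and 69.6% in mau x sec. polo stood at the 79.7, 79.9, 77.2, 83.1 and 80.9 percentile of all genes tested in these crosses, and asl at 48.6, 51.7 and 41.4 in the first 3. Sas-4 was in the lower part, between 6.05 and 31.1. These medians and ranks include X-linked genes, for which XY hybrids carry only the mother's X, whereas the members are autosomal. Among autosomal genes alone, the asl difference between sim x mau and mau x sim stood at the 62.7 percentile. The allele difference was called by limma for 6 of 6 members in sim x mau (72.4% of all genes), 3 of 6 in mau x sim (70.6%), 6 of 6 in sim x sec (78.3%), 5 of 5 in sec x mau (78.9%) and 3 of 5 in mau x sec (70.6%). The members not called were cnn, Sas-6 and aurA in mau x sim, and Sas-4 and Sas-6 in mau x sec. Under the other genome the count was 5 of 6 in sim x mau, without Sas-6 (0.13, adjusted p = 0.245), and 3 of 5 in sim x sec, without Sas-4 (0.02, 0.879) and Sas-6 (-0.01, 0.959) and with asl not testable. In mau x sim Sas-4 then lost its call (0.29, 0.0519) and cnn gained one (-0.14, 0.0396), and in sec x mau the call of Sas-4 turned to the D. mauritiana allele (-0.29, 0.0354).

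The pair of reciprocal crosses separates the mother's effect from that of the species: a ratio that is higher in the cross with that species as mother means more reads from the mother's allele. In the eggs of hybrid mothers no member differed in limma between (sim x mau) x sim and (mau x sim) x mau (0.0358% of all genes) or between (sec x mau) x sec and (mau x sec) x mau (0.0773%). No member had an unadjusted p under 0.05 in either, and edgeR called 0. The 95% interval of the difference for polo ran from -0.07 to 0.12 in D. simulans and D. mauritiana eggs and from -0.10 to 0.02 in D. sechellia and D. mauritiana eggs. At stage 5, 4 of 6 members differed between sim x mau and mau x sim, and 4 of 5 between sec x mau and mau x sec, all towards the mother. Over all genes 77.3% and 76.1% differed in either direction, and 76.6% and 75.6% towards the mother.

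polo again differed most, by 6.08 ± 0.15 on the log2 scale (limma adjusted p = 1.39e-12) in the first pair and by 7.35 ± 0.10 (8.18e-15) in the second. asl differed by 2.38 ± 0.11 (8.19e-10) in the first pair and, mapped to D. mauritiana, by 2.90 ± 0.15 (limma adjusted p = 1.35e-09) in the second. aurA differed by 1.06 ± 0.16 (6.17e-05) and 1.75 ± 0.15 (2.44e-07), and cnn by 0.90 ± 0.07 (2.7e-07) and 1.21 ± 0.07 (5.85e-09). Within the first pair the aurA and cnn differences lay within about their errors of each other. Sas-6 differed by 0.29 ± 0.18 (0.157) and 1.26 ± 0.19 (7.22e-05).

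Sas-4 showed no difference that the test could call, at -0.04 ± 0.15 (limma adjusted p = 0.843; 95% interval -0.33 to 0.26) between sim x mau and mau x sim, and 0.09 ± 0.19 (0.698; -0.29 to 0.46) between sec x mau and mau x sec. Both intervals lay below the median of autosomal genes, which was 1.34 and 1.57. Among autosomal genes polo was at the 85.0 and 86.9 percentile, and Sas-4 at 7.16 and 13.1. Leaving out any 1 embryo lost no stage 5 reciprocal call, and XX embryos alone lost none either. With XX embryos alone Sas-6 gained a call between sim x mau and mau x sim, at 0.66.

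**Figure D3:**
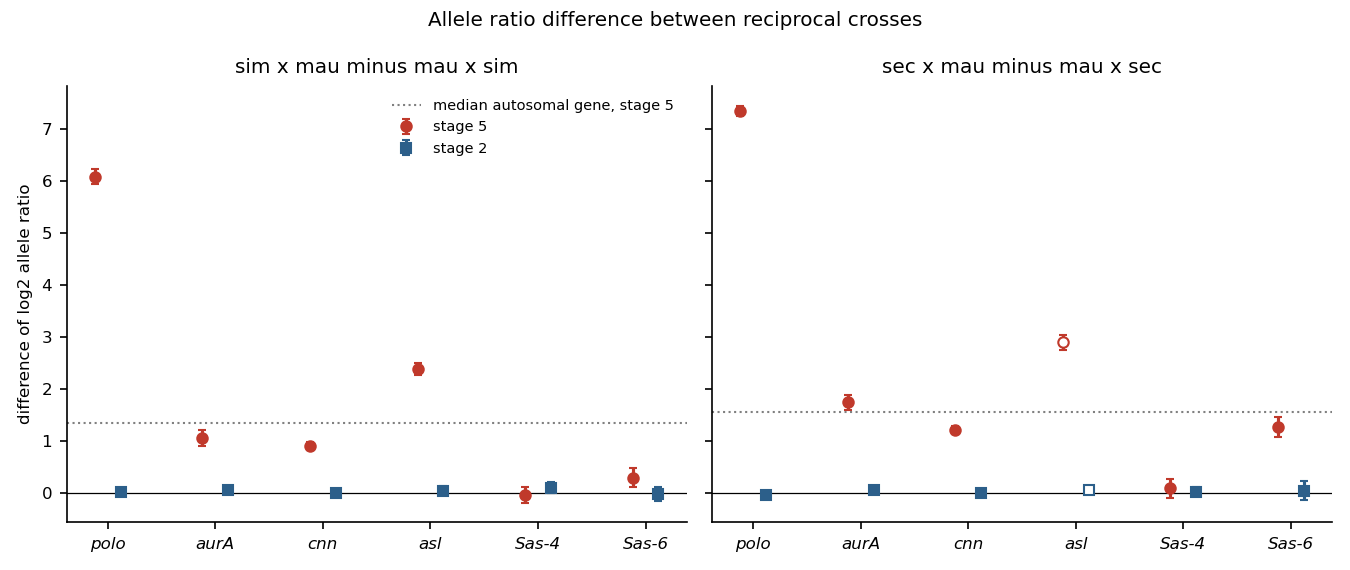
Difference of the log2 allele ratio between reciprocal crosses, with its SE, for each centrosome gene at stage 5 (red circles, 6 embryos per cross) and stage 2 (blue squares, 3 per cross). Open symbols for asl are reads mapped to D. mauritiana, and the dotted line is the median autosomal gene at stage 5. All members lie near 0 at stage 2, while polo reaches 6.08 and 7.35 at stage 5 and Sas-4 stays at -0.04 and 0.09.

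The choice of genome hardly moved the stage 5 maternal share of polo. Mapped to the other genome, it was 88.7% in sim x mau, 89.9% in mau x sim, 87.9% in sim x sec, 93.2% in sec x mau and 92.2% in mau x sec. The reciprocal difference of polo was then 6.13 and 7.35. Sas-4 moved more, to 45.0% in sec x mau and 56.0% in mau x sec, so the allele in the majority changed from D. sechellia to D. mauritiana. Its reciprocal difference stayed at -0.02 and 0.06. Averaged over the crosses of a pair, the maternal share of cnn was 57.5% under the main mapping and 58.1% under the other in D. simulans and D. mauritiana hybrids, and 60.1% and 60.4% in D. sechellia and D. mauritiana hybrids.

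**Figure D4:**
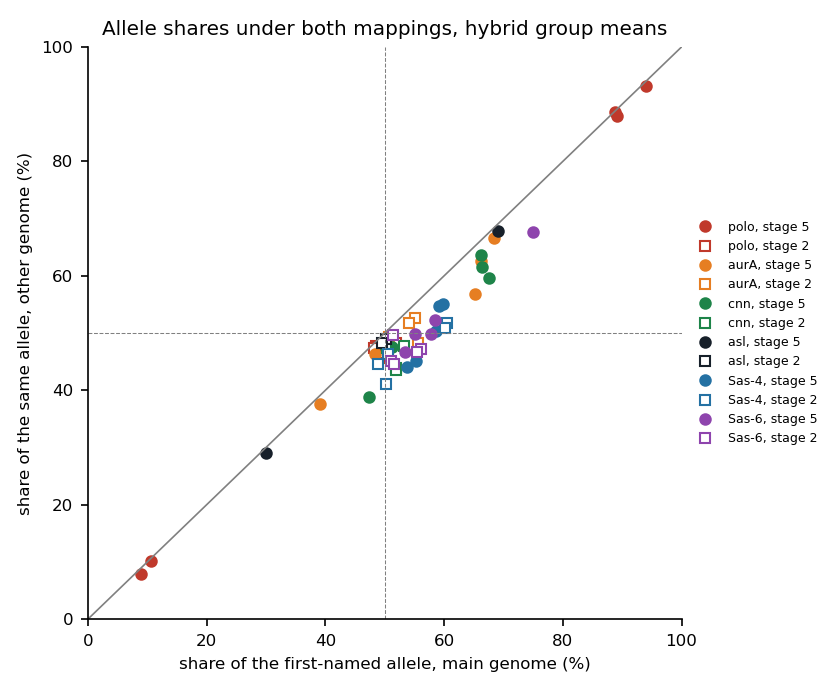
Share of the first-named species' allele in each hybrid group under the main mapping genome and under the other genome, both in percent of allele-assigned reads; points are group means, filled at stage 5 and open at stage 2, and the line marks equal shares. At stage 5 polo keeps its distance from the even share under both genomes, while most stage 2 groups lie near even and slightly below the line.

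The allele ratio in hybrids was also set against the ratio of the parental species. At stage 2 this asks whether a species difference persists when both alleles share 1 cell of the hybrid mother. At stage 2, limma called polo and no other member: 1 of 6 in (sim x mau) x sim (27.6% of all genes) and in (mau x sim) x mau (24.1%), 0 of 6 in (sim x sec) x sim (11.8%; 0 at an unadjusted p under 0.05, 0 by edgeR), and 1 of 5 in (sec x mau) x sec (10.2%) and in (mau x sec) x mau (9.22%). The parental polo difference of -0.67 between D. simulans and D. mauritiana stood beside hybrid ratios of -0.08 and -0.11, so the hybrid ratio was higher by 0.58 ± 0.14 (adjusted p = 0.0121) and 0.56 ± 0.15 (0.0196). In the D. sechellia and D. mauritiana eggs the hybrid ratio was higher by 0.67 ± 0.19 (adjusted p = 0.0433) and 0.71 ± 0.19 (0.0344). Leaving out 1 embryo lost the second of these calls 3 times and each of the last pair 7 times. None of the 4 differences was called in reads mapped to the other genome, where they were 0.30, 0.27, 0.21 and 0.25.

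At stage 5 the same comparison followed the maternal share. It cannot ask that question there, because the mother's allele includes transcripts made in a mother of a single species. The study limited its stage 5 analysis to zygotic-only genes or those with a log2 stage change over 3. No member reached that, the largest change being 1.59 for polo in D. sechellia. Called members were 5 of 6 in sim x mau (59.1% of all genes), 3 of 6 in mau x sim (52.6%), 5 of 6 in sim x sec (57.3%), 4 of 5 in sec x mau (59.6%) and 2 of 5 in mau x sec (48.8%). polo differed most, by 3.38 ± 0.18 in sim x mau (limma adjusted p = 3.21e-08) and -2.71 ± 0.17 in mau x sim (1.61e-07), away from the parental ratio and towards the mother's allele in each. Sas-6 did not follow that direction in the sim/mau pair: its sim/mau ratio exceeded the parental one by 1.10 ± 0.20 in sim x mau (0.000593) and by 0.81 ± 0.28 in mau x sim (0.0299), and under the other genome the second lost its call (0.67, adjusted p = 0.0663). Sas-4 was not called in any cross, with differences of -0.35, -0.31, -0.50, 0.25 and 0.17, and in sim x sec the other genome gave -0.63 (adjusted p = 0.0216). The cnn call in sim x sec, at 0.51 (adjusted p = 0.0234), was lost under the other genome (0.34, 0.114).

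Summed over both alleles, no hybrid group mean exceeded both parents by more than 25%, a limit used as a description with no test. At stage 2, both parents exceeded the hybrids by more than that in 8 gene and cross combinations, 12 lay between or like 1 parent and 8 were similar to both. At stage 5 the counts were 4, 13 and 11. All counts are from the main mapping and were not made over all genes, so no genome-wide share stands beside them. The parental embryos came from an earlier study, so hybrid origin and study cannot be told apart here. aurA made up 4 of these 8 at stage 2: it had 796 to 869.8 in (sim x mau) x sim, where the parental means were 1155 and 1081, and 749.9 to 782 in (sim x sec) x sim, where they were 1179 and 1031. In no cross did the aurA eggs of hybrid mothers overlap either parent. Sas-6 made up the other 4: it had 281 to 372 in (sim x mau) x sim and 272 to 363 in (mau x sim) x mau, where the parental means were 441 and 535, 302 to 321 in (sim x sec) x sim, where they were 456 and 427, and 92.9 to 111 in (sec x mau) x sec, where they were 131 and 139. None of these eggs overlapped a parent. At stage 5 polo sums were 4328 ± 261 in sim x mau, against 3918 and 5056 in the parents, and 7755 ± 329.6 in mau x sec, against 9439 and 9880 in the parents, with no overlap in mau x sec.

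Across the 30 sim/mau embryos, each gene's summed level was correlated with the other members and with all 6472 tested genes, as a description. polo and aurA ran opposite to each other (Pearson r = -0.93), as did polo and Sas-4 (-0.88), while polo and cnn ran together (0.85). The embryos share stage, so these values include the stage change. The genes most like each member were crc for polo (r = 0.99), CG33129 for aurA (0.99), AGO2 for cnn (0.96), beta4GalT7 for Sas-4 (0.96), CG3407 for Sas-6 (0.95) and Taf5 for asl (0.92). Within the 18 stage 5 embryos r was 0.89 for polo and crc but 0.60 for aurA and CG33129.

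Other genes of the centrosome and spindle gave the surroundings of the members. Of 21 further centriole and pericentriolar genes, 14 had a row and 13 were tested, with 4 higher and 8 lower at stage 5 in D. simulans, 5 and 6 in D. sechellia and 5 and 6 in D. mauritiana. The list's median change was -0.57, -0.40 and -0.26, beside 0.46, 0.49 and 0.50 over all genes. Its called genes included cbs, at -6.89 ± 0.23 in D. simulans (limma adjusted p = 2.57e-06), and Cep97, a centriole-capping protein, at -2.41 ± 0.12 (9.58e-06). The gamma-tubulin ring complex, which nucleates microtubules, had 4 tested genes, with 1 higher and 3 lower in each species and medians of -2.56, -3.28 and -2.83. gammaTub37C, the maternal gamma-tubulin, changed by -7.63 ± 0.24 in D. simulans (limma adjusted p = 2.14e-06), and gammaTub23C, its widely expressed counterpart, by 2.09 ± 0.11 (1.01e-05). Among 16 tested spindle genes, 5 were higher and 10 lower in D. simulans, 3 and 8 in D. sechellia, and 5 and 7 in D. mauritiana, with medians of -0.70, -0.49 and -0.23. alphaTub67C, a maternal alpha-tubulin, fell by 5.84 on the log2 scale in D. simulans. mud, which orients spindles, changed by 2.49 ± 0.19 (limma adjusted p = 4.76e-05).

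Regulators of the member kinases and of centriole number had 19 genes tested for stage change, with 7 higher and 10 lower in D. simulans, 8 and 10 in D. sechellia and 7 and 11 in D. mauritiana, with medians of -0.36, -0.64 and -1.09. gnu and plu, subunits of the kinase complex that drives the first embryonic cycles, changed by -7.33 ± 0.31 (limma adjusted p = 5.15e-06) and -6.93 ± 0.77 (0.000264) in D. simulans. tws, a regulatory subunit of protein phosphatase 2A, changed by -4.94 ± 0.15 (1.92e-06), whereas Pp2A-29B, its structural subunit, changed by 1.79 ± 0.10 (1.43e-05).

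In the reciprocal crosses at stage 5, autosomal genes of these lists also differed towards the mother and none towards the father. X-linked genes were left out of this count, since XY hybrids carry only the mother's X. In sim x mau minus mau x sim, 10 of 12 centriole and pericentriolar genes were called towards the mother, 3 of 3 of the gamma-tubulin complex, 10 of 12 spindle genes and 16 of 17 regulators. Of all autosomal genes tested, 73.4% were called, counted in either direction. The median difference was 0.63 for the centriole list, below the autosomal median of 1.34, and 5.24, 2.12 and 3.73 for the other lists. In sec x mau minus mau x sec the medians were 0.73, 6.43, 2.93 and 4.49, beside 1.57. gammaTub23C differed by 12.2 ± 0.25 (limma adjusted p = 4.29e-13) in the first pair, with mean maternal and paternal values of 1956 and 17.5 in sim x mau, and Pp2A-29B by 5.49 ± 0.13 (1.01e-12).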

How the data were processed

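The authors sequenced poly(A)-selected RNA of single embryos, trimmed reads with Cutadapt 1.7.1 and aligned them with TopHat 2.0.13 to both genomes of a pair (D. simulans r2.02, D. sechellia r1.3, D. mauritiana MS17 with variants of the laboratory line). The deposited values are a signal: reads at variant sites per gene, allele and embryo, which the authors scaled to the upper quantile within a pair. The deposited tables also give other numbers, the count of variant sites per gene. Whole reads were recovered for 100% of values within 0.01 of a whole number. limma 3.58.1 in R 4.3.3 was run on log2(value + 1), with variance trend, on genes with a mean of at least 5 in either species, and edgeR 4.0.16 on recovered reads was an alternative. The main genome was D. simulans, or D. sechellia for the pair without it. The study removed genes that mapped in a biased way, whereas no such filter was applied here. Percentages over all genes therefore include such genes. A parental level is the species' own allele.

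The members and lists were chosen with earlier results of these data known. Besides the members, the genes named were, in each list, the 3 with the largest stage change called alike in all species and the 3 with the largest species difference among those called most often. For each member its best-correlated gene was also named. Only part of these are described. The stage and species p-values of the list genes come from the same values that picked them. Alternatives were the other genome, pseudocounts of 0.5 and 5, a minimum of 20 or none, TMM, division by embryo total, no variance trend, the replicate number as a block, XX embryos alone and each embryo left out. On simulated data, a change of 1 log2 unit between stages was found for 96 of 99 genes, with 7 false calls among 5578 (D. simulans). Among the other comparisons simulated, such a change was found for 54 of 108 genes in the difference of stage change (D. simulans minus D. mauritiana, 6398 genes), 68 of 103 in hybrid against parental ratios ((sim x mau) x sim, 5550) and 76 of 99 in the stage 2 reciprocal difference (sim/mau, 5547). The simulation gave all genes the same fixed dispersion and changed only genes with a mean of at least 20. Its rates may therefore overstate what could be found in these embryos. The 95% intervals are a normal approximation from limma's SE and measure the spread between embryos. They are narrower than intervals from limma's own t distribution would be.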

Additional observations from a re-analysis of the deposited data

Results flagged for a closer look

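In 56 sets of 6 values, each a gene and measure in 1 cross, 3 had a single embryo far from the others, all in allele share. Chance flags about 1 in 20 sets, so 3 of 56 is close to what chance gives. For aurA in sim x mau, replicate 6 had 73.6% D. simulans reads, with the others at 62.8% to 66.5%. For aurA in mau x sim, replicate 3 had 39.1% D. simulans reads, with the others at 49.3% to 51.7%. For cnn in mau x sim, replicate 2 had 54.9% D. simulans reads, with the others at 49.4% to 51.4%. All 3 embryos were labelled XX.

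The allele ratio differed between reciprocal crosses at stage 5. In log2 units the differences between sim x mau and mau x sim were 6.08 for polo, 2.38 for asl, 1.06 for aurA and 0.90 for cnn. Between sec x mau and mau x sec they were 7.35 for polo, 1.75 for aurA, 1.26 for Sas-6 and 1.21 for cnn.

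The stage change differed between species for Sas-4 (1.18), Sas-6 (-0.74) and aurA (-0.53) in D. simulans minus D. sechellia, and for polo (0.64) in D. sechellia minus D. mauritiana.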

How the results depend on the processing

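Over the members, 3509 of the alternative values kept the call or its absence, 163 lost the call and 34 gained one. A further 11 were called in the main fit and turned round. Values called in neither fit were counted as kept even where their sign changed. The Sas-6 stage change in D. sechellia, 0.31 in the main fit and -0.4 divided by embryo total, was among these. Divided by embryo total, the asl stage change was -0.22 in D. simulans, -0.36 in D. sechellia and -0.37 in D. mauritiana, and edgeR gave 0 for asl in D. sechellia. Mapped to the other genome, the allele difference in (sim x sec) x sim was -0.14 for cnn, -0.1 for polo and -0.1 for aurA, that of cnn was -0.36 in (sec x mau) x sec and -0.37 in (mau x sec) x mau, that of Sas-6 in sim x sec was -0.01, and that of Sas-4 in sec x mau was -0.29. The cause was not tested. Without the variance trend, 7 species differences were called in place of 11, and 1 difference of stage change between species in place of 4. The count of differences of stage change was 2 under the other genome and 2 with both alleles summed. With the replicate number as a block, 15 hybrid against parental differences were called in place of 23, and the counts were 17 for stage change, 10 for species difference, 8 for reciprocal difference and 4 for the difference of stage change. The numbers do not pair embryos: of 45 same-numbered pairs, 16 had a correlation of deviations over 0.1, with a range of -0.826 to 0.805. Leaving out 1 embryo at a time gave 16 to 17 stage changes, 8 to 11 species differences, 33 to 35 allele differences, 20 to 24 hybrid against parental differences, 8 to 9 reciprocal differences and 1 to 5 differences of stage change between species.

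Depth was lowest for Sas-6 in the sec/mau hybrids under the main mapping, with 4 variant sites, and asl was read in these hybrids under 1 genome only.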

Other observations

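msd5, a subunit of the augmin complex that branches spindle microtubules, changed in opposite directions between species. Both msd5 and asp were named for large species differences in the same parental embryos, so their p-values here are not independent of that choice. Only the main mapping is given. At stage 5 it was higher than at stage 2 in D. sechellia, by 1.40 ± 0.22 on the log2 scale (limma adjusted p = 0.00028), and lower in D. simulans, by -0.71 ± 0.13 (0.00244), and in D. mauritiana, by -1.50 ± 0.18 (3.81e-05). The difference of the changes was -2.36 for D. simulans minus D. sechellia (adjusted p = 5.04e-05) and 2.96 for D. sechellia minus D. mauritiana (7.41e-07). asp, a spindle pole protein, was higher at stage 5 in D. simulans by 0.69 ± 0.14 (adjusted p = 0.00474), and was not called in D. sechellia (-0.29) or D. mauritiana (-0.23); the difference of changes was 0.99 against D. sechellia (0.00208) and 0.92 against D. mauritiana (0.00511).

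Between reciprocal crosses at stage 5, asp differed by 0.02 ± 0.05 (limma adjusted p = 0.759) in D. simulans and D. mauritiana hybrids and by 0.26 ± 0.06 (0.0012) in D. sechellia and D. mauritiana hybrids, while msd5 differed by 6.56 ± 0.29 (4.43e-10) and 9.22 ± 0.54 (6.59e-09).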
